A study of Xenopus laevis with 22 samples.

Results

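Of 12778 E2f4-GFP peaks called in Xenopus laevis ectoderm that carried Multicilin, 4128 (32.3%) lay between annotated genes and away from any annotated start, and these intergenic peaks are described here. A peak was included when its scaffold carried at least 1 annotated target (a transcript with a position and, in most cases, a gene symbol), when its centre lay outside the span of every target, and when that centre was more than 1 kb from every transcript start. No read-out of expression entered this choice. Of the other peaks, 4667 (36.5%) were within 1 kb of a start, 3057 (23.9%) lay inside a gene more than 1 kb from a start, and 926 (7.25%) were on scaffolds with no annotated target.

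The tissue was the animal cap, the ectoderm cut from the top of the blastula, which forms epidermis when cultured alone. For chromatin immunoprecipitation, about 300 caps per sample carried injected mRNA for E2f4-GFP, alone or with Multicilin-HGR, and were collected at 6 h (near stage 16), with 2 biological replicates and an input. For RNA sequencing, 20 caps per library carried Multicilin-HGR, alone or with a dominant-negative form of E2f4 (dnE2f4), in 3 biological replicates per group, collected at 3 h (near stage 13), 6 h (near stage 16) and 9 h (near stage 18). HGR is the hormone-binding part of the human glucocorticoid receptor, which holds a protein inactive until dexamethasone is added. Dexamethasone at 20 µM was given at mid-stage 11 to the caps with Multicilin-HGR, and caps were kept at 22 °C. The labels list no dexamethasone for the caps with E2f4-GFP alone. Between the ChIP conditions, Multicilin and the hormone therefore cannot be told apart. Every RNA library carried Multicilin, so no RNA comparison shows what Multicilin itself did. Both ChIP conditions used an injected, tagged E2f4, and the caps with E2f4-GFP alone carried no hormone-dependent construct. The labels do not say whether replicates came from separate clutches of embryos, so p-values measure the spread between these libraries, which may be technical.

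E2f4 is a member of the E2f family of transcription factors, which bind DNA with a Dp partner at the promoters of genes for DNA replication, mitosis and centriole assembly. In cycling cells E2f4 acts mostly with pocket proteins as a repressor. In cells that will carry many cilia, Multicilin joins E2f4 and Dp1 and turns on the genes that build centrioles in large numbers, each centriole becoming the base of a cilium. Binding at starts is the textbook picture for E2f proteins. Enhancers, the sequences that act on a promoter from a distance, lie mostly in introns and between genes, and the nearest start is only the simplest guess at the gene a distant site may serve. Xenopus laevis is allotetraploid, so many genes are present as a pair of copies on the long (L) and short (S) subgenomes.

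The 18 RNA libraries held 9159519 to 38099850 estimated fragments on annotated targets. Levels in this paragraph are CPM, counts scaled to the same total in every library. Levels of single genes further on use edgeR's TMM scaling as well. Reads of e2f4, which include the injected dnE2f4 mRNA, stood at 14.1 to 36.1 CPM in the Multicilin libraries and 1235 to 11078 CPM in the dnE2f4 libraries. The pair labelled replicate 2 at 9 h was the exception. There the library labelled Multicilin held 1427 CPM and the library labelled dnE2f4 held 14.2 CPM, so both were left out of the tests, which used 14 libraries. Another 2 libraries were counted on a different set of targets and were not tested. Epidermal markers (10 of 10 found) summed to 9163 to 24333 CPM per library and multiciliated-cell markers (6 of 7 found) to 2984 to 7820 CPM. The multiciliated-cell sum includes mcidas, the gene of Multicilin, whose reads may come from the injected mRNA. Mesoderm markers (6 of 6) summed to 5.13 to 27.7 CPM with myf5 under 1 CPM throughout, endoderm markers (4 of 6) to 36.3 to 251 CPM, and neural markers (4 of 5) to 1401 to 9780 CPM with neurog2 under 1 CPM throughout. In these bulk samples, fewer cells of a type and less RNA per cell cannot be told apart. Reads were not assigned by strand, and reads of near-identical copies were shared between them by an estimate, so levels of such copies are uncertain.

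The intergenic peaks were mostly far from a start. The distance from peak centre to the nearest start had a median of 29916 bases, with quartiles at 10783 and 79268 bases, and ran from 1005 to 1730590 bases. Within 2 kb of a start lay 172 peaks, a further 357 lay at 2 to 5 kb, 443 at 5 to 10 kb, 690 at 10 to 20 kb, 962 at 20 to 50 kb and 678 at 50 to 100 kb. The remaining 826 (20.0%) were more than 100 kb from any annotated start. On the upstream side of the nearest start lay 2753 peaks (66.7%), at a median of 20833 bases, and 1375 (33.3%) lay past the nearest gene, at a median of 52664 bases.

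The intergenic sequence itself also reaches far from starts, and peaks per megabase (Mb) of it take that into account. Between the outermost annotated targets of each scaffold, where 3508 of the peaks lay, density was 8.03 peaks per Mb at 1 to 2 kb from a start. It was 5.84 at 2 to 5 kb, 4.64 at 5 to 10 kb, 4.21 at 10 to 20 kb, 2.85 at 20 to 50 kb, 2.02 at 50 to 100 kb and 1.15 beyond 100 kb. Intergenic sequence within 1 kb of a start, which the definition leaves out, held 79.5 peaks per Mb. The density thus fell at each step away from a start, and the step at 1 kb was the steepest. Caps without Multicilin gave 7.48, 7.66, 6.76, 5.23, 3.73, 2.32 and 0.94 peaks per Mb over the same 7 ranges. Every range from 2 to 100 kb was denser without Multicilin, and the ranges from 1 to 2 kb and beyond 100 kb were denser with it.

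**Figure D1:**
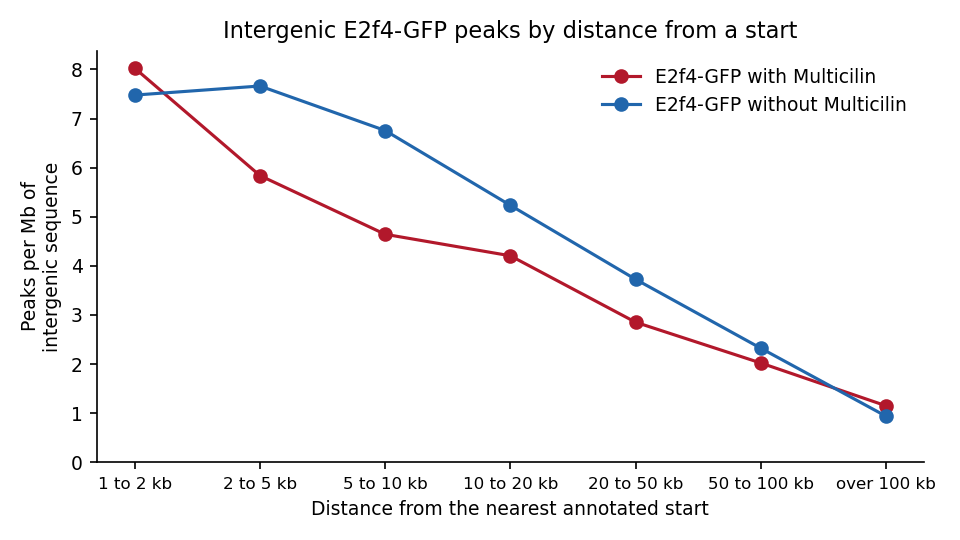
Density of intergenic E2f4-GFP peaks (peaks per Mb of intergenic sequence, vertical axis) in ranges of distance from the nearest annotated start (horizontal axis), with Multicilin (red) and without it (blue). With Multicilin the density falls from 8.03 peaks per Mb at 1 to 2 kb to 1.15 beyond 100 kb, and each point is a count over pooled replicates with no error between replicates.

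At the edge of the definition, members closest to a start included those at nadk, an NAD kinase (1005 bases), at nr2f1, a nuclear receptor (1007 bases), at baiap2l1 (1007 bases) and at the heme oxygenase gene hmox1 (1014 bases). Just outside it were peaks at sox4 (999 bases), arhgef5 (989 bases) and hunk (988 bases). The farthest members were 3 peaks beside zdhhc9, at 1444324, 1599320 and 1730590 bases, and 2 beside sall1, a zinc-finger gene of limb and kidney development, at 1334856 and 1335513 bases. All 5 lay past the last annotated target of their scaffold, where the next gene on that side is not known from these annotations. Such peaks with a single flanking target numbered 620.

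The remaining peaks lay between neighbouring targets. Both neighbours pointed the same way for 1787 peaks (43.3%), away from the gap for 1043 (25.3%) and into it for 678 (16.4%). The gaps were long, with a median of 109108 bases. The order of the flanking genes was looked up in the RefSeq annotation of assembly Xenopus_laevis_v10.1, for names and order only. For 1092 peaks (31.1% of those with 2 flanks) the flanking genes were also immediate neighbours in RefSeq, over gaps of median 80293 bases. For 750 peaks (21.4%) RefSeq placed up to 10 further genes between them, over gaps of median 177918 bases. For these 750, the nearest target used here may not be the nearest gene. The share of peaks also present without Multicilin was 33.7% for the 1092 and 34.5% for the 750. The lookup left the other flanked peaks unsettled. The order differed between copies for 270, the flanks were not neighbours for 605, a symbol was not matched for 696, and 95 had no symbol or the same symbol on both flanks. Targets listed as unnamed counted here as having a symbol.

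The region past fxr1, an RNA-binding protein gene, shows such a case. Between fxr1 and atp11b on scaffold 30987 (build JGIv7b) lay 8 intergenic peaks, of which 4 fell within 14609 bases (1299679 to 1314287), 305415 to 319813 bases from the fxr1 start. RefSeq lists sox2, the pluripotency and neural progenitor factor, between fxr1 and atp11b, and sox2 is not among the targets used here. On scaffold 168805 the neighbour of fxr1 is dcun1d1, and RefSeq lists sox2 and atp11b among the genes between them. That gap held 4 intergenic peaks, 3 of them 303810 to 315114 bases from the fxr1 start, nearly the distance of the group on scaffold 30987. Of the 8 peaks 1 was also present without Multicilin, and of the 4 peaks 2 were.

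Some intergenic peaks formed tight groups. Joined at 10 kb or less, 636 peaks formed 300 groups, of which 33 held 3 or more peaks and 3 held 4. Besides the group past fxr1, a group lay upstream of slc25a45 on scaffold 54194 (438123 to 454125) and another between bmi1 and spag6 on scaffold 52573 (1099720 to 1115313). Bmi1 is a Polycomb repressor subunit, and spag6 is a component of the central pair of motile cilia. In that gap of 22784 bases, 3 peaks lay 5215, 10471 and 14523 bases upstream of spag6 and the fourth lay 15194 bases past the bmi1 start. All 4 were also present without Multicilin. This spag6 copy rose from 23.5, 27.0 and 15.5 CPM at 3 h to 229, 248 and 275 CPM at 6 h in the Multicilin libraries, a log2 fold change of 3.50 that passed edgeR's test. With dnE2f4 it stood at 169, 164 and 193 CPM at 6 h, below all 3 Multicilin libraries and lower within each replicate number. In the fit that did not pair libraries by replicate number, that difference did not pass (log2 fold change -0.52, edgeR adjusted p = 0.191). The result of a paired fit is not given for this copy.

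Fewer of the intergenic peaks than of the peaks at starts were also found without Multicilin. By an overlap of at least 1 base, 1373 of 4128 intergenic peaks (33.3%; exact 95% binomial interval 31.8 to 34.7%) had a counterpart without Multicilin. The share was 68.2% (66.8 to 69.5%) for peaks within 1 kb of a start, 37.7% (35.9 to 39.4%) inside genes and 23.8% (21.0 to 26.6%) on scaffolds with no target. The interval of the intergenic peaks did not reach that of either other class on annotated scaffolds. These intervals cover counting error only, because each condition has 1 list called on pooled replicates and no spread between replicates can be had. Read in the other direction, the 1373 were 29.0% of the 4733 intergenic peaks of caps without Multicilin. Of the 2755 that had no counterpart, 153 had a peak without Multicilin within 1 kb.

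The shared intergenic peaks lay closer to starts. Their median distance was 19437 bases, against 36192 bases for those found only with Multicilin. The share was 36.6% at 1 to 2 kb, 45.9% at 2 to 5 kb (40.7 to 51.3%), 42.2% at 5 to 10 kb, 41.3% at 10 to 20 kb, 31.8% at 20 to 50 kb and 30.5% at 50 to 100 kb. Beyond 100 kb it was 19.5% (16.8 to 22.4%), and there the list with Multicilin held 826 intergenic peaks against 639 without it. Whether the nearest start itself held a peak made little difference, with 34.2% shared where it did and 33.0% where it did not. By the layout of the flanking genes the share was 36.0% where both pointed away from the gap, 33.5% where they pointed the same way, 33.2% where they pointed into it and 27.9% where only 1 flank was annotated.

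The depth of the peak lists differed between the conditions. The list with Multicilin was called on 15313243 tags with a threshold of 11 tags per peak, and the list without it on 24997566 tags with a threshold of 13, by the authors' file headers. The files give no tag count per peak, so a peak missing from 1 list may have fallen just under its threshold, and the part of depth in these shares was not tested. With an overlap of at least 50% of each peak required on both sides, 27.2% of the intergenic peaks were shared.

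**Figure D2:**
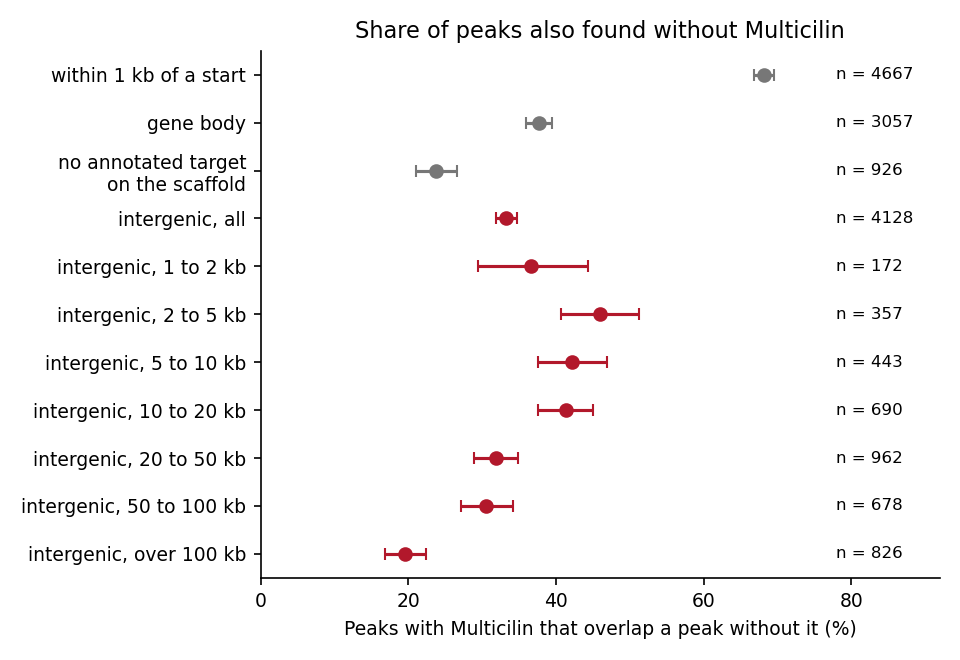
Share of peaks with Multicilin that overlapped a peak without it (%, horizontal axis) for each class of peak and, among intergenic peaks, each range of distance from a start. Bars are exact 95% binomial intervals and n is the number of peaks with Multicilin; peaks within 1 kb of a start are at 68.2%, all intergenic peaks at 33.3% and those beyond 100 kb at 19.5%.

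The 4128 peaks pointed to 3164 distinct nearest targets, 13.0% of those annotated. For 43 peaks the symbol of the nearest target was given as NA, a count that leaves out targets listed as unnamed. A single intergenic peak was assigned to 2480 of these targets, 2 to 481 and 3 or more to 203. The nearest target by the edge of its span was the same as that by its start for 3641 peaks (88.2%). The start of the nearest target held an E2f4-GFP peak of its own for 1000 of the intergenic peaks (24.2%), and 19.7% of all annotated targets had such a start peak.

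Genes of the epidermis and of Notch signalling were frequent among the nearest targets. Of 60 epidermal targets, 27 (45.0%) were nearest to an intergenic peak, with 53 peaks in all, of which 27 were shared. They included the keratin genes krt12, krt8, krt18 and krt19, the Grainyhead factors grhl1 and grhl3, which drive barrier formation, and the Krüppel-like factors klf4 and klf5. RefSeq lists krt19 and other keratin genes between krt12 and krt17, a gap that held 5 intergenic peaks on 2 scaffolds. For those peaks the nearest target used here may not be the nearest gene. A grhl1 copy on scaffold 43061 had 5 peaks, 2760 to 60306 bases from its start and 4 of them shared. Of 61 Notch targets 27 (44.3%) were nearest to a peak, among them the ligand genes dll1, jag1 and jag2, the receptor gene notch1, its nuclear partner rbpj and the repressor genes hes1 and hes5 that the pathway turns on. For all annotated targets the figure was 13.0%.

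The other lists differed in how far their genes stood from their neighbours. Neural genes reached 36.7% (18 of 49), mesoderm genes 31.3% (5 of 16) and endoderm genes 33.3% (5 of 15), and these genes stand in long gaps. The median intergenic territory, meaning the intergenic sequence closer to that start than to any other, was 72.0 kb, 68.9 kb and 56.1 kb for them and 20.5 kb for all targets. Per Mb of territory the neural list held 2.54 peaks, mesoderm 3.37 and endoderm 4.01, and all targets 2.51. The epidermal list held 13.1 peaks per Mb over a median territory of 26.4 kb, Notch genes 8.61 over 33.2 kb, and regulators of multiciliated cells 8.22 over 33.7 kb (11 of 33 nearest to a peak). Within 10 kb of the start, the epidermal list held 43.8 peaks per Mb, the multiciliated-cell regulators 26.7, Notch genes 25.6, neural genes 16.6, endoderm genes 15.2 and ionocyte genes 15.1, mesoderm genes had no peak there, and all targets held 5.48. These rest on few peaks, 20 for the epidermal list, 8 for the neural list, 4 for the ionocyte list and 2 for endoderm. The epidermal peaks include some between krt12 and krt17, where the nearest gene is uncertain. These are descriptions of lists chosen with earlier results of these data known, and no list was tested.

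The lists of centriole and cell-cycle genes had many start peaks. Of 85 centriole targets 63.5% had a start peak, but 12.9% (11) were nearest to an intergenic peak, close to the 13.0% of all targets. For G1/S and replication genes the figures were 65.5% and 13.4% (16 of 119), for G2/M genes 51.8% and 10.9% (15 of 137), and for axoneme genes 41.4% and 13.8% (8 of 58). Per Mb of territory, however, axoneme genes held 6.20 intergenic peaks, G1/S genes 3.01, centriole genes 2.82 over a median territory of 9.57 kb, and G2/M genes 2.58, against 2.51 for all targets. Within 10 kb the values were 2.91 for axoneme, 9.71 for G1/S, 8.40 for centriole and 5.25 for G2/M genes, from 1, 6, 3 and 4 peaks. In the epidermal list 20.0% of targets had a start peak, close to the 19.7% of all targets.

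Several regulators of multiciliated cells carried intergenic peaks close to the gene. Foxj1, the factor that turns on genes of motile cilia, had 3 at each of its copies, the closest 2343 bases upstream on scaffold 71264 (617775 to 617985) and 2526 bases upstream on scaffold 106323 (1169747 to 1169957), and 5 of the 6 were shared. Neither foxj1 start held a peak. The neighbouring genes cdc20b, mcidas and ccno, of which mcidas encodes Multicilin and ccno a cyclin-like protein needed for centriole amplification, had a peak each on scaffold 52441 at 11341, 4498 and 9805 bases, and all 3 were shared. On scaffold 337825 mcidas had a peak at 6785 bases and ccno at 12650 bases. Levels of mcidas are not given, since reads of the injected mRNA cannot be told apart from those of the gene. The p53-family gene tp73 had a peak 3890 bases upstream, and myb, a factor that promotes centriole amplification, had 3 at 14452 to 104007 bases, none of them shared. Alpha-tubulin tuba1a copies had peaks 2999 and 3030 bases upstream.

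For some genes with a pair of copies, peaks stood at nearly the same place beside both. Of 6530 symbols with exactly 2 targets on different scaffolds, which are taken here as candidate copies without a check of which subgenome they are on, 285 had an intergenic peak nearest to both targets and 1270 to 1 of them. Among the 285, every peak of a copy was paired with every peak of the other. Distances to the start differed by at most 10% in 99 of 568 pairs on the same side of the start (17.4%) and in 5 of 188 pairs on opposite sides (2.66%), both sets being drawn from the same symbols. The 99 pairs came from 65 of the 285 symbols. Pairs of a symbol can share a peak and are not independent. Upstream peaks lay at a median of 20833 bases and peaks past the gene at 52664 bases, and the part of this difference in the shares was not tested. For pairs with both peaks at 10 to 50 kb the counts were 26 of 112 on the same side and 3 of 31 on opposite sides, and beyond 50 kb they were 51 of 190 and 2 of 37. Beyond 50 kb fxr1, slc38a10, myc and slitrk5 each gave several of the same-side matches, and there the 10% tolerance spans many kb.

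Among the paired positions, upstream peaks were at 3204 and 3210 bases at the copies of the T-box gene tbx3, at 4426 and 4408 bases at gata3, at 5289 and 5271 bases at lin28a, at 4061 and 3714 bases at klf4 and at 4293 and 4042 bases at dmrta2. The gap between bmi1 and spag6 held peaks at 14523 and 14424 bases upstream of the spag6 copies. Far from the start, tfap2c had peaks at 70836 and 70595 bases, myc at 283339 and 283356 bases and fxr1, on the sox2 side, at 315191 and 315114 bases. These examples were picked after their values were seen. Of the 163 peaks in such pairs 61.3% were also present without Multicilin, against 40.8% of the other 706 peaks of the same 285 symbols. Both peaks of a pair were shared in 39 pairs, 1 peak in 38 and none in 22.

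**Figure D3:**
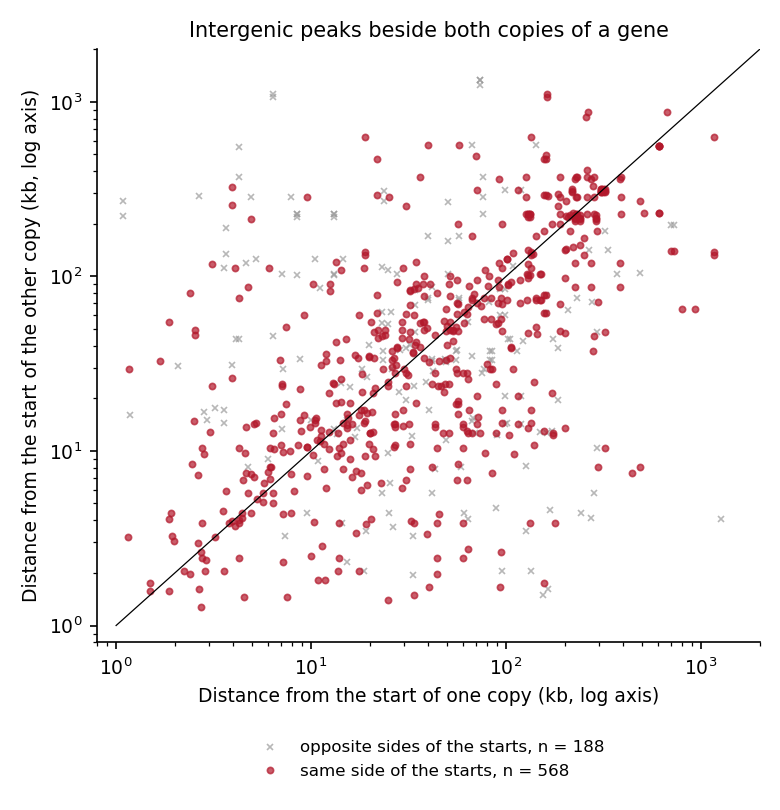
Distances from the start (kb, log axes) of intergenic peaks beside the candidate copies of a gene, one point per pair of peaks, for pairs on the same side of the start (red, 568) and on opposite sides (grey crosses, 188). The line marks equal distances; 99 same-side pairs and 5 opposite-side pairs lie within 10% of it.

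The response of the nearest targets was tested first at 6 h, the time of the ChIP, as dnE2f4 with Multicilin against Multicilin alone. At 6 h 140 of 2722 tested nearest targets changed (5.14%; 46 higher and 94 lower with dnE2f4), where 3.44% of all 20043 tested targets changed (0.868% higher and 2.57% lower), by edgeR's quasi-likelihood test at a Benjamini-Hochberg adjusted p under 0.05. Multicilin and dnE2f4 libraries with the same replicate number deviated together at 6 h, and with the replicate number as a block 599 nearest targets changed (22.0%; 279 higher and 320 lower), where 15.9% of all targets did. The count depended on single libraries. It was 37 without Multicilin replicate 3, 46 without dnE2f4 replicate 2, 52 without dnE2f4 replicate 3 and 88 without Multicilin replicate 2. The shares of all tested targets in these fits were 1.02%, 1.20%, 1.42% and 2.15%, in that order. With the 9 h replicate 2 pair kept in the fit, no nearest target passed edgeR's test, with 367 at an unadjusted p under 0.05. In that fit 0 of all 19567 tested targets passed, so the loss was not particular to the nearest targets. DESeq2 on the 14 libraries called 281 nearest targets, where it called 7.03% of all targets.

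Lower levels with dnE2f4 went with a peak at the start. Among the nearest targets whose start held a peak, 68 of 719 changed (9.46%; 12 higher and 56 lower), and among those whose start held none, 72 of 2003 changed (3.59%; 34 higher and 38 lower). Targets with a start peak and no intergenic peak changed in 241 of 4010 cases (6.01%; 25 higher and 216 lower), and targets with neither in 309 of 13311 (2.32%; 103 higher and 206 lower). Genes with start peaks were also more highly expressed, at a median log2 CPM of 4.93 for nearest targets with a start peak, 4.51 for targets with a start peak alone, 3.32 for nearest targets without a start peak and 2.82 for targets with neither. Within bands of expression, in that order, the shares changed were 11.7%, 9.41%, 7.39% and 4.84% at a log2 CPM of 5 or more and 8.68%, 4.52%, 3.30% and 2.66% at 2 to 5. With the replicate block the middle groups changed places, at 37.3%, 28.9%, 31.4% and 22.8% in the upper band and 31.3%, 20.0%, 22.0% and 16.4% in the lower, and with scaling by library size alone they did so at 2 to 5 (4.63% and 4.88%). Nearest targets with a start peak had the highest share and targets with neither the lowest in both bands under all 3 fits. Leaving out each 6 h library in turn gave 3.19 to 7.64% for nearest targets with a start peak and 0.695 to 4.2% for those without. Whether the groups differed was not tested, and genes are not replicates.

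At 6 h, closer and more numerous peaks went with a larger share of changed targets, and also with higher expression. The share was 7.61% (36 of 473) where the closest intergenic peak was at 1 to 5 kb, 5.26% (18 of 342) at 5 to 10 kb, 4.74% (53 of 1119) at 10 to 50 kb and 4.19% (33 of 788) beyond, and the median log2 CPM of these groups was 4.57, 4.29, 3.87 and 3.12. With 1 intergenic peak it was 4.53% (95 of 2099), with 2 or more 7.22% (45 of 623) and with 3 or more 9.57% (18 of 188), at median log2 CPM of 3.69, 4.22 and 4.48. Targets with at least 1 shared intergenic peak changed in 6.67% of cases (73 of 1095), and those whose peaks were found only with Multicilin in 4.12% (67 of 1627), at median log2 CPM of 4.21 and 3.52. The part of expression in these shares was not tested. At 9 h the shares did not follow the same order, at 1.27%, 1.75%, 1.52% and 1.14% by distance and 1.43%, 1.28% and 1.06% by number of peaks. By side of the peak the 6 h totals were close, at 5.15% (100 of 1943) with an upstream peak and 5.13% (40 of 779) with peaks past the gene only, but the directions were 25 higher and 75 lower for the first and 21 higher and 19 lower for the second. All 11 nearest targets that changed at 3 h by edgeR's test had an upstream peak. An upstream peak was present for 1943 of all 2722 tested nearest targets. Without Multicilin 3 h replicate 2 the 11 became 0. The difference between the sides was not tested.

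Within 10 kb, the direction of change differed with the start peak. With a start peak 24 of 211 targets changed (11.4%), of which 2 were higher and 22 lower with dnE2f4. Without a start peak 30 of 604 changed (4.97%), of which 19 were higher and 11 lower. The lower majority with a start peak held without each library in turn, at 8 to 20 lower against 2 to 4 higher. The higher majority without a start peak depended on the fit. It stood with the replicate block (72 higher and 55 lower), DESeq2 (31 and 28), DESeq2's size factors (15 and 11), uniquely assigned counts (14 and 12), no filter (14 and 10), and without Multicilin replicate 2 (18 and 7), dnE2f4 replicate 1 (25 and 15) or dnE2f4 replicate 2 (6 and 3). It became 5 higher and 9 lower without Multicilin replicate 1, 1 and 4 without Multicilin replicate 3, 4 and 5 without dnE2f4 replicate 3, and 4 and 8 with the 6 h groups fitted alone. Scaling by library size alone gave 24 higher and 8 lower, and moved the median log2 fold change of all targets from 0.03 to 0.12. It turned the split of all 140 nearest targets to 74 higher and 66 lower.

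**Figure D4:**
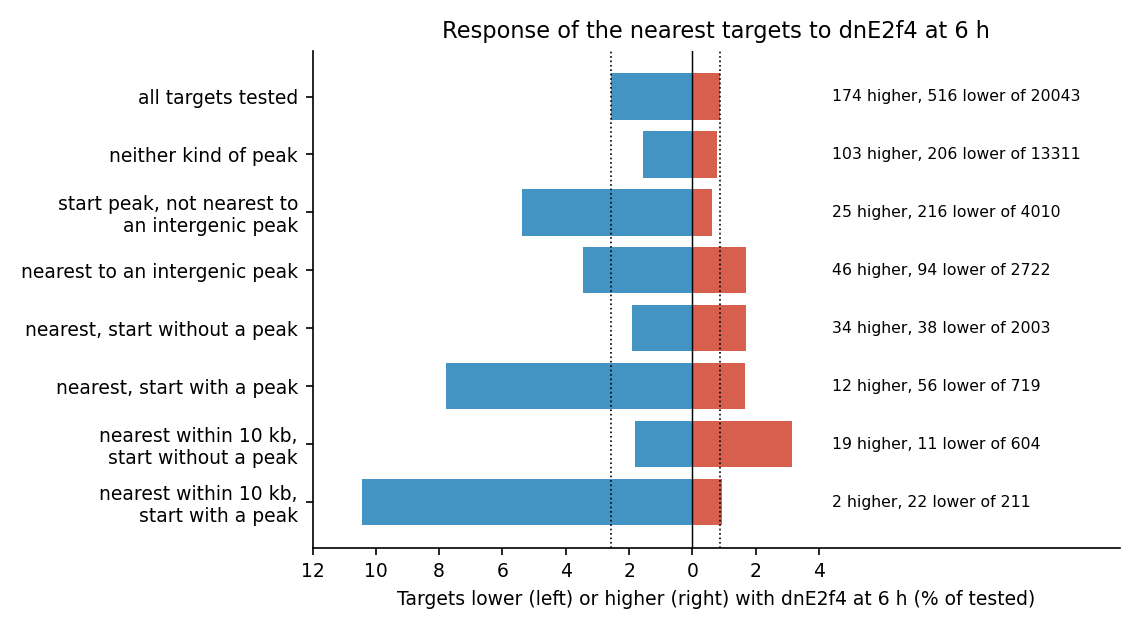
Share of tested targets that were lower (blue, left) or higher (red, right) with dnE2f4 at 6 h (%, edgeR adjusted p under 0.05), by where E2f4-GFP peaks lay; counts are at the right and dotted lines mark the shares of all targets. Nearest targets with a start peak within 10 kb of an intergenic peak have the longest bar to the left, 22 lower of 211 tested.

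Single genes among the nearest targets moved by large factors. Genes named for their change were picked on these same libraries, so groups that do not overlap are no added support. The share of all tested targets whose groups did not overlap is not given. The cyclin A1 gene ccna1 on scaffold 91366 had its intergenic peak 6477 bases upstream (779779 to 779989), not found without Multicilin, and a peak at its start. Its level at 6 h was 13.0, 25.4 and 22.6 CPM in Multicilin replicates 1, 2 and 3 and 2.86, 0.94 and 1.85 CPM with dnE2f4. Every dnE2f4 library was below every Multicilin library, and the fall was the largest among the nearest targets that changed (log2 fold change -3.41 ± 0.37 SE, edgeR adjusted p = 0.000771). The other ccna1 copy, on scaffold 200825, had its peak 10202 bases upstream (2189214 to 2189424) and no start peak. It stood at 4.04, 12.8 and 9.04 CPM with Multicilin and at 2.25, 0.68 and 0.87 CPM with dnE2f4 (-2.68 ± 0.49, edgeR adjusted p = 0.0129). Here too the groups did not overlap.

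A pair of hes5 targets on scaffold 208071, from a cluster of Notch-responsive repressor genes, moved the other way. The first, with a peak 13458 bases past its start (3964872 to 3965082), held 0.23, 1.93 and 1.30 CPM with Multicilin and 3.61, 6.61 and 17.3 CPM with dnE2f4 (log2 fold change 2.91 ± 0.73, edgeR adjusted p = 0.0490). The second, with a peak 9180 bases past its start (3987901 to 3988111), held 0.34, 0.53 and 0.47 CPM with Multicilin and 1.46, 2.40 and 5.21 CPM with dnE2f4 (2.66 ± 0.62, edgeR adjusted p = 0.0368). In both, all dnE2f4 libraries were above all Multicilin libraries, at low levels. From uniquely assigned counts alone the second missed the threshold (edgeR adjusted p = 0.0636), and hes5 copies may share reads.

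The next by size were lower with dnE2f4. Nr2f2, a nuclear receptor, had 3 peaks past the gene on scaffold 23872, at 17240, 51731 and 117023 bases. It held 1.31, 1.59 and 1.59 CPM with Multicilin and 0.49, 0.19 and 0.00 CPM with dnE2f4 (log2 fold change -2.42 ± 0.57, edgeR adjusted p = 0.0385; 0.113 from uniquely assigned counts). Its levels are low, and the groups did not overlap. Dmrta2, a regulator of cortical and olfactory progenitors, had a shared peak 4042 bases upstream on scaffold 69443 (4593502 to 4593712) and no start peak. It held 4.49, 3.66 and 6.02 CPM with Multicilin and 1.04, 0.75 and 0.87 CPM with dnE2f4 (-2.39 ± 0.41, edgeR adjusted p = 0.00896), again without overlap.

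The Polycomb gene bmi1 on scaffold 155082 had a peak at its start. Its intergenic peaks were 2316 bases upstream and 13583 and 14041 bases past its start, the last 2 in the gap before spag6. It held 5.23, 10.5 and 9.98 CPM with Multicilin and 1.79, 1.54 and 1.52 CPM with dnE2f4 (log2 fold change -2.39 ± 0.31, edgeR adjusted p = 0.0020). The groups did not overlap. The bmi1 copy on scaffold 52573 lay beside the group of 4 peaks and also had a start peak. This copy did not pass in the fit without the replicate block (-0.29, edgeR adjusted p = 0.798), and its result with the block is not given. Sgsm1, a regulator of small GTPases with a peak 19914 bases upstream, held 6.20, 15.4 and 10.7 CPM with Multicilin and 1.82, 3.42 and 1.52 CPM with dnE2f4 (-2.22 ± 0.38, edgeR adjusted p = 0.00904), and these values did not overlap either.

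**Figure D5:**
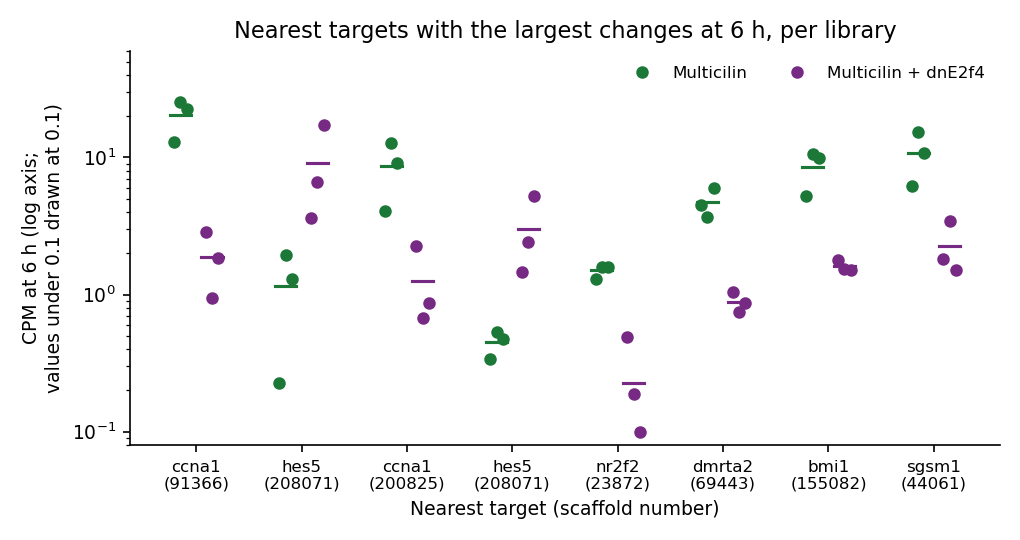
Levels at 6 h (CPM, log axis, values under 0.1 drawn at 0.1) of the 8 nearest targets with the largest changes, one point per library, for Multicilin alone and Multicilin with dnE2f4. In all 8 the 3 libraries of each group stand apart, with ccna1 on scaffold 91366 falling from 13.0 to 25.4 CPM to 0.94 to 2.86 CPM. The 8 were picked for the size of their change in these same libraries, so the separation is no added support.

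The next 12 by size included dlx2 (log2 fold change 1.98), pdgfa (1.96), efnb2 (1.95) and rtn4r (1.86), which were higher with dnE2f4, and ppp2r2b (-1.93), nfe2l3 (-1.90), trpm2 (-1.90), mink1 (-1.77), znf605 (-1.75), plk4 (-1.68), cav1 (-1.67) and a target listed as unnamed (-2.19), which were lower. Of these, ppp2r2b (edgeR adjusted p = 0.0909) and rtn4r (0.0521) missed the threshold on uniquely assigned counts. Plk4, the kinase that starts centriole duplication, was the only centriole gene of the 11 nearest targets in that list that changed. It fell from 277 ± 72.9 to 86.4 ± 16.2 CPM (SD, n = 3 each; edgeR adjusted p = 0.00199), and its intergenic peak was 71742 bases upstream while its start held a peak. With the replicate block 7 of the 11 were lower. Over the whole centriole list 41 of 85 were lower, and 61 with the block. The caveolin gene cav1, with a peak 1170 bases upstream and a start peak, fell from 826 ± 193 to 259 ± 57.1 CPM (edgeR adjusted p = 0.0164).

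Of the 11 regulators of multiciliated cells nearest to a peak, 4 were lower and none was higher, where the whole list had 8 lower and 2 higher of 31 tested. At 3 h this list and the list of E2f, Dp and pocket proteins each had 2 higher, of 3 higher among all targets. Reads of e2f4 include the injected dnE2f4 mRNA, so the higher calls may come from it. With the replicate block 9 of the 11 were lower, but these include both mcidas targets, whose reads may come from the injected mRNA. Tp73 fell from 164 ± 26.3 to 67.4 ± 9.68 CPM (log2 fold change -1.28 ± 0.18, edgeR adjusted p = 0.0031). Cdc20b fell from a mean of 220 to 84.3 CPM (-1.38 ± 0.29, edgeR adjusted p = 0.0246), and ccno on scaffold 337825 fell from 946 ± 194 to 466 ± 58.1 CPM (-1.02 ± 0.21, edgeR adjusted p = 0.0206). Myb fell from 188 ± 16.4 to 98.1 ± 13.2 CPM (-0.94 ± 0.13, edgeR adjusted p = 0.00319). All 4 had a start peak as well. Foxj1, without one, did not pass at either copy, at 752 ± 117 against 589 ± 70.8 CPM (-0.35 ± 0.19, edgeR adjusted p = 0.400) and at 632 ± 54.2 against 461 ± 37.9 CPM (-0.46 ± 0.14, edgeR adjusted p = 0.101); with the replicate block both were lower (adjusted p = 0.0296 and 0.00799).

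Of the 24 tested Notch targets nearest to a peak, 5 were higher with dnE2f4 and none was lower, where the whole list had 7 higher and none lower of 53. With the replicate block 10 of the 24 were higher and 2 lower. The median log2 fold change of the 24 was 0.48, that of the whole Notch list was 0.36 and that of all targets was 0.03. The 5 were both hes5 targets above, hes1 on scaffold 66475 and dll1 on scaffolds 34423 and 39723. Hes1 had peaks 2331 bases upstream and 2718 and 35041 bases past its start, all shared, and rose from 12.2, 15.4 and 8.56 CPM to 26.0, 24.5 and 27.6 CPM (log2 fold change 1.11 ± 0.21, edgeR adjusted p = 0.0154). Dll1, which encodes a ligand that activates Notch in the neighbouring cell, rose from 14.4, 16.3 and 16.1 CPM to 33.5, 34.5 and 63.1 CPM on scaffold 34423 (1.48 ± 0.27, edgeR adjusted p = 0.0129). The intergenic peak of this dll1 copy was 136689 bases from the start and not found without Multicilin, and its start held a peak. Neither gene's groups overlapped.

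The 19 higher targets within 10 kb of an intergenic peak and without a start peak included gata3, tbx3 and dlx5. Both gata3 copies, with peaks 4408 and 4426 bases upstream, rose from 21.7 ± 10.9 to 68.9 ± 29.9 CPM and from 28.6 ± 14.7 to 90.1 ± 41.3 CPM (edgeR adjusted p = 0.0305 and 0.0446). On scaffold 5375, the second of these, the groups overlapped across replicate numbers, with 42.8 CPM in dnE2f4 replicate 1 and 43.5 CPM in Multicilin replicate 2. Within each replicate number the dnE2f4 library was higher. Multicilin replicates 1, 2 and 3 held 14.05, 43.5 and 28.3 CPM, and dnE2f4 replicates 1, 2 and 3 held 42.8, 118.7 and 108.9 CPM. Gata3 is a transcription factor of non-neural ectoderm. Tbx3 on scaffold 229342, with a peak 3210 bases upstream, rose from 16.5, 45.3 and 25.1 CPM to 54.5, 103 and 110 CPM (log2 fold change 1.62 ± 0.33, edgeR adjusted p = 0.0206). Its other copy, on scaffold 44061 with a peak 3204 bases upstream, did not pass in the fit without the replicate block (1.42, edgeR adjusted p = 0.128). The result of that copy with the block is not given. The homeobox gene dlx5, with a peak 6016 bases past its start, the heparan sulphate carrier sdc1, with a peak 5144 bases upstream, and lmo4, with a peak 2832 bases upstream, were also among them.

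The remaining lists gave few calls among the nearest targets. In the neural list sox3 (-1.39) and zic2 (-1.36) were lower of 14 tested, both with start peaks; sox3 went from 66.1 ± 0.975 to 25.3 ± 2.29 CPM (edgeR adjusted p = 0.000878). The axoneme list gave dnaaf1 (-0.57) of 8, the intraflagellar transport list b9d2 (-0.59) of 9, the G1/S list e2f7 lower (-0.94) and wee1 higher (0.50) of 15, and the G2/M list only the ccna1 copies of 15. None of the 26 tested epidermal targets passed, and none of the ionocyte, mesoderm or endoderm targets nearest to a peak did. Over all tested targets 3.44% passed, and at that share lists this small may hold no call. With the replicate block, where 15.9% of all targets changed, 2 of the 26 epidermal targets were higher and 3 lower, and 3 of 5 ionocyte targets were higher. The axoneme list then had 6 lower of 8, intraflagellar transport 7 of 9, the neural list 5 of 14, and the G2/M list 4 higher and 6 lower of 15.

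At 3 h dnE2f4 changed 11 of the 2722 nearest targets (0.404%; 1 higher and 10 lower), where 0.284% of all targets changed (0.015% higher and 0.269% lower). Otp, a homeobox gene with a shared peak 11277 bases upstream, held 22.7, 29.2 and 38.9 CPM with Multicilin and 2.48 and 4.50 CPM in the 2 tested dnE2f4 libraries (log2 fold change -3.13, edgeR adjusted p = 0.0207). Sstr5, a somatostatin receptor gene with peaks 2977 and 3763 bases upstream, was lower by a log2 fold change of -2.36, tp73 by -1.65, dmrta2 by -2.38 and ccna1 on scaffold 91366 by -2.29. The groups did not overlap for otp. Shares of all targets are not given for the fits that leave out a library at 3 h, so their counts describe those settings. Without Multicilin replicate 1 the count was 4, without Multicilin replicate 3 it was 37, and without Multicilin replicate 2 or either dnE2f4 library it was 0 (232, 173 and 218 at an unadjusted p under 0.05 without Multicilin replicate 2, dnE2f4 replicate 2 and dnE2f4 replicate 3).

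At 9 h, with a single dnE2f4 library whose spread was taken from the other groups, 38 nearest targets changed (1.40%; 8 higher and 30 lower), where 1.13% of all targets changed (0.215% higher and 0.918% lower). That count fell without Multicilin replicate 3. The share of all targets in that fit is not given, so the fall describes the setting and not these targets in particular. Ccna1 on scaffold 91366 reached 305 and 253 CPM in the Multicilin libraries and 16.5 CPM with dnE2f4 (log2 fold change -4.08, edgeR adjusted p = 0.0104), and wrap73, a centrosomal protein gene with a shared peak 7359 bases upstream, was lower by -2.35 (edgeR adjusted p = 0.0357). The neuronal RNA-binding gene elavl2 was lower by -2.87 and hsd17b12 by -2.39, both at under 10 CPM. With the replicate 2 pair included in the fit, no nearest target passed edgeR's test at 9 h, with 16 at an unadjusted p under 0.05. The difference between the effects at 6 h and 3 h passed for 0 of the 2722 nearest targets by edgeR's interaction test, where 0.00499% of all targets passed, and 157 had an unadjusted p under 0.05. DESeq2 was not run on that interaction.

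Over time in the Multicilin libraries, the nearest targets moved about as often as other genes. From 3 to 6 h 1475 of 2722 changed (54.2%; 732 higher and 743 lower at 6 h), where 52.1% of all targets changed. From 6 to 9 h 807 changed (29.6%; 381 higher and 426 lower at 9 h), where 28.8% of all targets changed; without Multicilin 9 h replicate 1 the count was 526. Scaled by library size alone the splits were 576 higher and 948 lower, and 244 higher and 615 lower. From 3 to 6 h that scaling moved the median log2 fold change of all targets from -0.03 to -0.28. The splits of all targets under it are not given, nor is their share without Multicilin 9 h replicate 1. These alternative counts therefore describe the settings and not the nearest targets in particular. These comparisons share the Multicilin 6 h libraries with the dnE2f4 comparison.

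By list, all 8 axoneme targets nearest to a peak rose from 3 to 6 h, as did all 58 of the whole axoneme list. Of the 10 centriole targets nearest to a peak that changed, 8 rose. Notch targets went the other way, with 14 lower and 1 higher of 24, and 31 lower and 4 higher of 53 in the whole list. Of 26 epidermal targets, 8 rose and 6 fell. Trpm2, a cation channel gene with a peak 5994 bases upstream, rose from 0.33, 0.27 and 0.07 CPM at 3 h to 22.3, 19.3 and 13.6 CPM at 6 h and 247 and 170 CPM at 9 h, and held 6.25, 4.06 and 4.34 CPM with dnE2f4 at 6 h.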

How the data were processed

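Per the submitters' processing notes, STAR, eXpress, DESeq, Bowtie2, Bowtie and HOMER were used, with no versions given, on build JGIv7b. The authors deposited eXpress estimated counts per target and, for each ChIP condition, a peak list; per the file headers, HOMER called peaks on pooled replicates against pooled input at a false discovery rate of 0.001, with a 4-fold minimum against the input and against the 10000 bases around each peak. Per the labels, libraries were poly-A selected and 3 RNA and 2 ChIP biological replicates were made. The score column of the deposited peak lists held 1 constant value and was not used; the FPKM column that the authors deposited beside the counts was not used either.

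Estimated counts were rounded and fitted with edgeR 4.0.16 (TMM, filterByExpr, robust quasi-likelihood; R 4.3.3) over 14 libraries, with Benjamini-Hochberg adjustment over 20043 targets. Only the 6 h dnE2f4 comparison of this fit was tried on simulated counts, which were drawn without pairing between libraries. The other comparisons and fits were not tried in that way. Levels of single genes are CPM per library with TMM scaling, and those of e2f4 and the summed markers are scaled by library total alone. Depth (9159519 to 38099850 fragments) limits calls at low levels. Alternatives were DESeq2 1.42.0, other scalings, uniquely assigned counts, no filter, a replicate block, other library sets, and leaving out each library. Same-numbered libraries deviated together at 6 h (r = 0.68, 0.42 and 0.46, with -0.50 to 0.17 between different numbers), so the numbers pair the samples there. At 3 h r was 0.16 and 0.28, over 2 pairs only.

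Members, lists and tests were chosen with earlier results of these data known. Named targets were the 20 largest called changes at 6 h, 6 each at 3 and 9 h, list members, the closest and farthest peaks and the largest groups; the first 8 are given by sample. Other genes were named after their values were seen. Sequences of the peaks are not given. A peak among the closest to a start is not reported here.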

Additional observations from a re-analysis of the deposited data

How the results depend on the processing

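The number of intergenic peaks was 4244 at 500 bases from a start, 3956 at 2 kb and 4121 with the whole peak outside every span. Sharing was 27.2% by reciprocal overlap, and the median distance was 19894 bases to the nearest span. Among nearest targets at 6 h, against 140, 54 were within 10 kb, 72 had no start peak, 281 passed by DESeq2, 599 with the replicate block (pairing), 76 with the compared groups alone, 0 by edgeR with 16 libraries (367 at an unadjusted p under 0.05) and 37 to 137 without each library. At 3 h, against 11, these were 6 without a start peak, 89 by DESeq2, 143 with the block, 0 by edgeR with the compared groups alone (312 unadjusted), 0 with 16 libraries (158 unadjusted) and 0 to 37 without each library. At 9 h, against 38, they were 12 within 10 kb, 21 without a start peak, 184 by DESeq2, 379 with the block, 0 by edgeR with the compared groups alone (245 unadjusted), 0 with 16 libraries (16 unadjusted) and 2 to 46 without each library. Over time, 455 (3 to 6 h, against 1475) and 255 (6 to 9 h, against 807) were within 10 kb, the block gave 1311 at 9 h against 6 h, and leaving out each library gave 1295 to 1379 and 526 to 740. The 10 kb and start-peak counts are subsets by construction, and the cause of the other shifts was not tested. Calls over all targets at 6 h shifted too, from 690 to 1409 by DESeq2, 3191 with the block, 403 with the compared groups alone and 0 with 16 libraries. For 3 h, 9 h and the changes over time, the shares over all targets under these alternatives are not given. Those counts therefore describe the settings and not the nearest targets in particular.

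Of the 20 largest changes at 6 h, none reversed. All 20 missed the threshold with 16 libraries, 9 without dnE2f4 replicate 2, 8 without dnE2f4 replicate 3, 8 without Multicilin replicate 3, 5 without Multicilin replicate 1, 4 without Multicilin replicate 2, 5 with the compared groups alone, 4 on uniquely assigned counts and 2 without a filter. None did with the block, DESeq2, another scaling or without dnE2f4 replicate 1. Starts of the second target set were not added, since its further targets lie on other assemblies. The peak lists give no tag count per peak and pool their replicates, so neither depth nor spread could be assessed peak by peak.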
